A study of Mus musculus with 8 samples.

Results

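The alcohol dehydrogenase genes Adh1, Adh4, Adh5 and Adh7 and the aldehyde dehydrogenase genes Aldh2, Aldh1a1, Aldh1a7, Aldh1b1, Aldh3a2 and Aldh9a1 were followed in mouse liver. The rule names these 10 genes of the families, out of 35975 genes in the count table, and uses no measured value. The transcripts of each gene were summed, and each of the 10 genes passed the filter of 10 counts per library and so entered the test across 12883 genes. The question was whether 2 weeks of infusion of 4-hydroxyphenylacetic acid (4-HPAA) into the portal vein changed the expression of these enzymes in the liver.

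Alcohol dehydrogenases oxidize alcohols to aldehydes, and aldehyde dehydrogenases oxidize aldehydes to carboxylic acids. In the liver this pair of steps turns ethanol into acetate and retinol into retinoic acid, and it also clears aldehydes that arise from lipids, amines and carnitine synthesis. 4-HPAA is itself a carboxylic acid of this kind, the product of oxidation of 4-hydroxyphenylacetaldehyde, an aldehyde that monoamine oxidase makes from tyramine. Gut microbes also produce it from polyphenols and amino acids.

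Both groups were C57BL/6 mice that carried a portal vein catheter fed by an osmotic pump. The control mice received Normal saline and the treated mice received 4-HPAA dissolved in Normal saline, each for 2 weeks, with 4 mice and 4 libraries per group. Per the study's methods the animals were C57BL/6J, were bought at 8 to 10 weeks of age and were housed singly after surgery. The sex of these 8 mice is not given in the labels. The level of 4 Y-linked genes, summed as TPM (a level per transcript length, scaled to the same total in every library), lay between 78.7 and 94.7 in all 8 libraries. Each of these genes had at least 415 counts in every library, as in male mice. The libraries held 29559978 to 30673398 estimated counts each. RNA came from whole liver tissue, in which fewer cells of a type and less RNA per cell cannot be told apart. Hepatocyte markers summed to 97010 to 130000 TPM, and 5 of 8 pancreatic acinar markers (Prss2, Cpa1, Cel, Pnlip and Ctrb1) and 5 of 8 markers of foregut and intestinal epithelium (Muc5ac, Gkn1, Gkn2, Krt4 and Krt13) had at most 3 counts in any library. The other acinar markers were detected, with means of 30.9 TPM for Cela1, 1.16 TPM for Cela2a and 0.151 TPM for Cpb1. So were the other epithelial markers, with means of 87.1 TPM for Fabp2, 6.06 TPM for Tff1 and 0.105 TPM for Vil1. The 5 red blood cell markers summed to 6328 TPM in saline replicate 2 and 1700 TPM in 4-HPAA replicate 4, against 261 to 942 TPM in the other libraries, and the part of this in the results was not tested.

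Replicate 4 of both groups stood apart from the other mice in several of the genes described here. Of 10 pericentral hepatocyte markers (genes of the hepatocytes next to the central vein, among them Glul and Cyp2e1), 9 were lowest of their group in saline replicate 4 and 9 in 4-HPAA replicate 4. The summed pericentral level was 5162 TPM in saline replicate 4, against 8052 to 8231 TPM in the other saline mice, and 5895 TPM in 4-HPAA replicate 4, against 7669 to 8525 TPM. No pericentral marker was at 0. The log2 fold changes of Aldh1a1, Aldh3a2 and Aldh1b1 are given with and without these libraries. So are the correlations of Aldh1a1 with other members. The SDs within groups and the genes most like Aldh1a1 are given with these libraries only.

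The 4 alcohol dehydrogenase members, which are not the whole family, lie on the plus strand of chromosome 3 of the mouse genome build GRCm38. Their order is Adh7 (chr3:138217760-138233382), Adh1 (chr3:138260991-138290698), Adh4 (chr3:138415466-138430892) and Adh5 (chr3:138443093-138455499). Aldh1a1 (chr19:20492715-20643465, plus strand) and Aldh1a7 (chr19:20692953-20727562, minus strand) are neighbours on chromosome 19 and face each other. The other members are spread over the genome, with Aldh9a1 at chr1:167349991-167368532 and Aldh1b1 at chr4:45799022-45804604 on the plus strand, and Aldh2 at chr5:121566027-121593824 and Aldh3a2 at chr11:61223417-61267464 on the minus strand.

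Aldh1a1 and Aldh1a7 are the closest relatives among the members, which bears on how well their counts can be told apart. Their coding sequences have the same length of 1503 bases and differ at 126 of them, an identity of 91.6%. The longest stretch without a difference is 100 bases, as long as 1 read. The 90 coding bases with the most differences, 19 in all, are printed here with the differing bases in capitals.
Aldh1a1: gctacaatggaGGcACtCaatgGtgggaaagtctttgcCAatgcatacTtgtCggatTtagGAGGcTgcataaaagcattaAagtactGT
Aldh1a7: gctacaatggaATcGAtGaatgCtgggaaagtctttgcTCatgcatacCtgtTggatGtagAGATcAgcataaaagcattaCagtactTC
These are bases 310 to 399 of the coding sequence, counted from 1 at the start codon, in the GENCODE transcripts ENSMUST00000087638 and ENSMUST00000025656. Elsewhere the pair shared enough sequence that 281 of the 2023 words of 31 bases in Aldh1a1 (13.9%) also occurred in Aldh1a7, where they made up 13.8%. Adh1 shared 44 of 1462 such words (3.01%), 29 of them with the pseudogene Adh6-ps1. The main transcripts of the other 7 members shared 0 words with any other gene. The values of Aldh1a1 and Aldh1a7 therefore carry an uncertainty from the division of shared reads, and those of Adh1 a smaller one.

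The liver used 1 of the 2 starts of Aldh1a1 almost alone. Transcript ENSMUST00000087638, which starts at chr19:20601961, held 99.3% of the Aldh1a1 counts on average, with a range of 99.2% to 99.5% over the 8 mice. The longer protein-coding transcript ENSMUST00000225337, which starts at chr19:20492715, held 0.623%. RefSeq for GRCm38.p6 also lists an upstream and a downstream start of Aldh1a1, which are not at the same base as those of the GENCODE transcripts. The 250 bases before each RefSeq start of Aldh1a1, and before those of Aldh1a7 and Aldh3a2, are printed 5′ to 3′ on the strand of the gene. Matches to 4 short motifs on either strand are in capitals.
Aldh1a1, upstream RefSeq start, chr19:20492333-20492582, plus strand: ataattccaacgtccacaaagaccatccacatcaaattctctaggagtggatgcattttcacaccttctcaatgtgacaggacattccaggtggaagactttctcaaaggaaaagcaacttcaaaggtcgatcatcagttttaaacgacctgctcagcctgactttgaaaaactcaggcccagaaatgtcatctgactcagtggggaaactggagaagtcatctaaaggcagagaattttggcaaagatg
Aldh1a1, downstream RefSeq start, chr19:20601718-20601967, plus strand: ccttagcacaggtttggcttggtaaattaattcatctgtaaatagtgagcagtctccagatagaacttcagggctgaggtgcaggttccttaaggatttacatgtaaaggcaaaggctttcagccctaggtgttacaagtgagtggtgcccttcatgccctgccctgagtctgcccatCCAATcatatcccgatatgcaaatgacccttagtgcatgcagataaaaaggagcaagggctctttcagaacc
Aldh1a7, chr19:20727557-20727806, minus strand: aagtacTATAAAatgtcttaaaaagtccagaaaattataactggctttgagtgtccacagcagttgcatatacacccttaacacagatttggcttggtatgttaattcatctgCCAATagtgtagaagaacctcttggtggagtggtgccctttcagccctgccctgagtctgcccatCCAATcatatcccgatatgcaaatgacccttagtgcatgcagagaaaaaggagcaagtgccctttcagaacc
Aldh3a2, chr11:61267187-61267436, minus strand: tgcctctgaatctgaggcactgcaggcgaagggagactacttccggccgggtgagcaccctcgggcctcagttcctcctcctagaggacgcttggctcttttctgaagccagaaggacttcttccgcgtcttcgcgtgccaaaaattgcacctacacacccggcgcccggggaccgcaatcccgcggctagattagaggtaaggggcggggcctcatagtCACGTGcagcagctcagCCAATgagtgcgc
The motifs were the TATA box (TATAAA), the CCAAT box (CCAAT), the core of the antioxidant response element (TGACNNNGC) and the E box (CACGTG). The downstream window of Aldh1a1 and the window of Aldh1a7 each held a CCAAT box that began 72 bases before the start. Around it the 2 windows were identical over 65 bases, from 94 to 30 bases before the start, and over 94 of the last 100 bases. The upstream window of Aldh1a1 held none of the 4 motifs. Over the 11 windows of the 9 members that matched the RefSeq table (all but Aldh2), a CCAAT box was found in 6 members, a TATA box in 3, an antioxidant response element core in 1 (Aldh9a1) and an E box in 1 (Aldh3a2). The TATA box matches lay far from the starts, at position -207 in the upstream window of Adh5, -202 in Adh7 and -244 in Aldh1a7. Of all 32851 windows of this length, 33.8% held a CCAAT box, 12.4% a TATA box, 10.2% the antioxidant response element core and 6.02% an E box. These shares are per window, whereas the counts before them are per member. These matches are descriptions of the sequence and not evidence of binding.

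Aldh2 and Adh1 were the most abundant members per length, followed by Aldh1a1 and Adh5. Aldh2, the mitochondrial enzyme that oxidizes acetaldehyde, was at 1686 ± 105 TPM with saline and 1709 ± 146 TPM with 4-HPAA (mean ± SD, n = 4 each). Adh1, the class I alcohol dehydrogenase that oxidizes ethanol and retinol, was at 1737 ± 182 and 1580 ± 110 TPM. These genes ranked 76 and 77 by level among all genes. Their order was not fixed, since Aldh2 was above Adh1 in 5 of 8 mice, and in 2 of 8 when each gene was divided by the length of its most abundant transcript alone. Aldh1a1, the cytosolic retinaldehyde dehydrogenase, followed at 623 ± 174 and 594 ± 159 TPM and was below Adh1 in all 8 mice. Adh5, the class III enzyme that oxidizes the glutathione adduct of formaldehyde, was at 388 ± 23.7 and 384 ± 24.8 TPM, below Aldh1a1 in 7 of 8 mice.

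The remaining 6 members were lower by a clear step, as Adh5 was above Aldh3a2 in all 8 mice, by 1.95 to 3.20 times. Aldh3a2, the fatty aldehyde dehydrogenase of the endoplasmic reticulum, was at 170 ± 16.2 and 159 ± 24.4 TPM, and Aldh9a1, which acts in carnitine synthesis, was at 144 ± 11.1 and 147 ± 10.1 TPM. Aldh3a2 and Aldh9a1 overlapped in level. Aldh9a1 was above Aldh1a7, the rodent relative of Aldh1a1, in all 8 mice. Aldh1a7 was at 112 ± 18.9 and 108 ± 9.90 TPM, and Adh4, the class II enzyme, at 92.0 ± 24.5 and 95.7 ± 23.8 TPM. Aldh1b1, a mitochondrial relative of Aldh2, was at 46.9 ± 26.9 and 41.3 ± 14.0 TPM. Adh7, the class IV enzyme known from the stomach and other epithelia, was lowest at 26.0 ± 3.43 and 27.6 ± 1.74 TPM. From Aldh1a7 downward, neighbours in this order overlapped, each above the next in 7 of 8 mice.

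**Figure D1:**
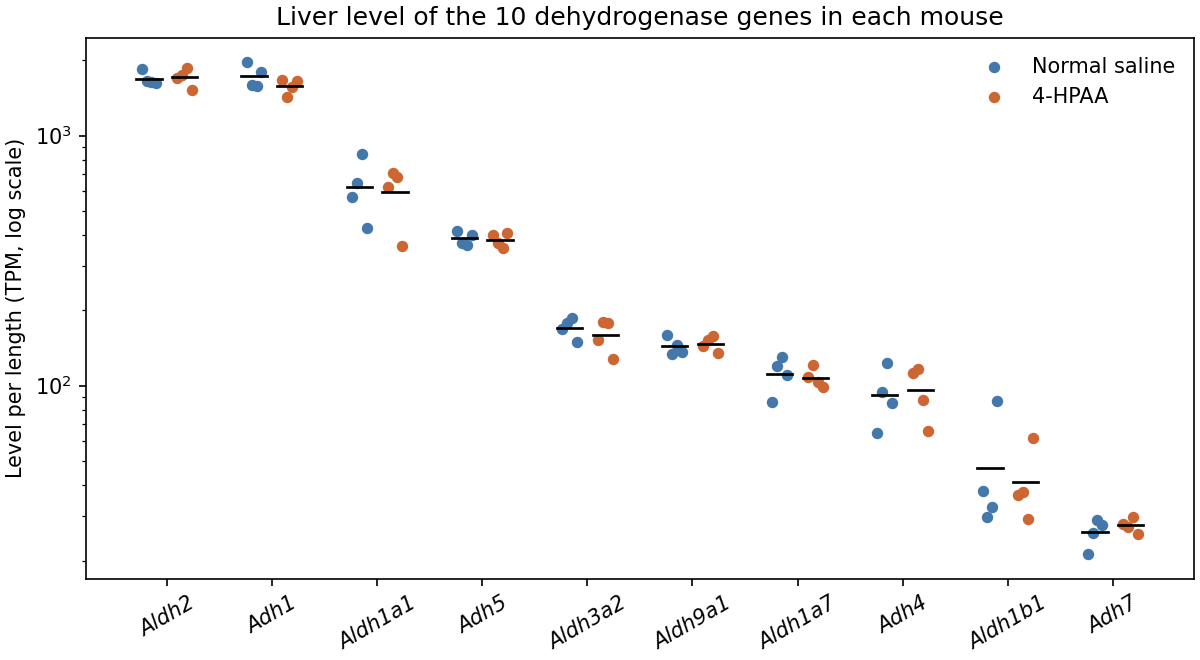
Level per length of the 10 genes in each mouse (y axis, TPM on a log scale), with Normal saline in blue, 4-HPAA in orange, 1 point per mouse and a black line at the group mean. Aldh2 and Adh1 lie at the top, Adh7 at the bottom between 21.2 and 29.8 TPM, and the groups overlap in every gene.

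Among the members of each family, 1 gene made up most of the summed level. The 4 alcohol dehydrogenase members summed to 2243 ± 181 TPM with saline and 2088 ± 117 TPM with 4-HPAA. Adh1 made up 76.5% of this sum over the 8 mice, Adh5 17.9%, Adh4 4.39% and Adh7 1.25%. The 6 aldehyde dehydrogenase members summed to 2781 ± 188 and 2758 ± 323 TPM, of which Aldh2 made up 61.5%, Aldh1a1 21.7%, Aldh3a2 5.94%, Aldh9a1 5.27%, Aldh1a7 3.98% and Aldh1b1 1.65%. The share of Aldh1b1 was 3.44% in saline replicate 4 and 2.67% in 4-HPAA replicate 4, against 0.970% to 1.33% in the other 6 mice.

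No member passed a test for a difference in expression after the infusion of 4-HPAA. Of the 10 genes, 0 passed an adjusted p of 0.05 by edgeR (quasi-likelihood F test, Benjamini-Hochberg), and 0 had an unadjusted p under 0.05. Across all 12883 genes, 0% passed the adjusted threshold by edgeR, 0% by limma-voom and 0.0155% (2 genes, Zfp36l2 and Ggnbp1) by DESeq2, and 1.75% had an unadjusted p under 0.05 by edgeR (225 genes), 1.68% by DESeq2 (216 genes) and 1.63% by limma-voom (210 genes). The 4 mice of each group overlapped in all 10 members, while 1.2% of all genes had groups that did not overlap. Of the members 5 were higher and 5 lower with 4-HPAA, where 50.4% of all genes were higher. The median log2 fold change was -0.02 over the members and 0.00 over all genes, and the median of its absolute value was 0.06 over the members and 0.07 over all genes. The count of members called stayed at 0 without replicate 4 of both groups.

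Among the alcohol dehydrogenases, Adh1 was the most abundant. Its CPM (counts scaled by TMM to a common library size, not divided by length) were 1712, 1482, 1429 and 1663 in saline replicates 1 to 4 and 1590, 1261, 1391 and 1546 in the 4-HPAA mice. Saline replicates 1 and 4 were highest and 4-HPAA replicates 2 and 3 lowest, with the other mice of both groups between them. The log2 fold change was -0.12 ± 0.11 (SE), with a 95% interval of -0.36 to 0.12 and an unadjusted p of 0.297, the lowest among the members (adjusted p = 1.00, edgeR). Adh5 was measured most tightly of the 4, at 375, 360, 339 and 379 CPM with saline and 399, 342, 326 and 395 CPM with 4-HPAA. Its log2 fold change was 0.01 ± 0.09, with an interval of -0.20 to 0.21.

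Adh4 and Adh7 were low and differed more from mouse to mouse. Adh4 was at 46.7, 69.8, 88.6 and 64.2 CPM with saline and at 84.7, 82.3, 64.5 and 51.1 CPM with 4-HPAA. Each group spanned nearly the same range, and the log2 fold change was 0.07 ± 0.21 (interval -0.39 to 0.53). Adh7 was at 19.7, 25.8, 29.4 and 29.0 CPM with saline and 28.7, 25.7, 27.5 and 24.2 CPM with 4-HPAA. Saline replicate 1 was lowest in both genes, and the log2 fold change of Adh7 was 0.03 ± 0.12 (interval -0.25 to 0.31).

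Among the aldehyde dehydrogenases, Aldh2 and Aldh9a1 were nearly level across all mice. Aldh2 was at 1580, 1545, 1461 and 1459 CPM with saline and 1595, 1568, 1706 and 1413 CPM with 4-HPAA. The 4-HPAA group held both the highest and the lowest mouse, and the log2 fold change was 0.06 ± 0.09 (interval -0.15 to 0.26). Aldh9a1 was at 257, 231, 242 and 233 CPM with saline and 249, 248, 257 and 236 CPM with 4-HPAA. The highest mouse exceeded the lowest by only 1.11 times, and the log2 fold change was 0.04 ± 0.07 (interval -0.12 to 0.20), the narrowest interval among the members.

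Aldh1a1, Aldh3a2 and Aldh1b1 differed more between mice of a group than between groups, which also held for the other members. Aldh1a1 was at 688, 830, 1054 and 547 CPM with saline and 818, 865, 837 and 468 CPM with 4-HPAA. Replicate 4 was the lowest of its group both times, and the log2 fold change was -0.06 ± 0.23 (interval -0.58 to 0.46). Aldh3a2 was at 287, 320, 330 and 259 CPM with saline and 282, 314, 304 and 230 CPM with 4-HPAA. Here too replicate 4 was lowest in each group, and the log2 fold change was -0.08 ± 0.12 (interval -0.34 to 0.18). Aldh1b1 was at 51.0, 42.3, 45.7 and 124 CPM with saline and 53.9, 51.5, 40.2 and 89.2 CPM with 4-HPAA. In this gene replicate 4 was the highest of each group, and the log2 fold change was -0.16 ± 0.36 (interval -0.97 to 0.64). Its sign depended on those 2 mice, being 0.34 without saline replicate 4, -0.45 without 4-HPAA replicate 4 and 0.06 ± 0.13 without both. That of Aldh1a1 was -0.03 ± 0.15 and that of Aldh3a2 -0.06 ± 0.09 without both.

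Aldh1a7, the neighbour and close relative of Aldh1a1, was less variable. It was at 105, 155, 164 and 142 CPM with saline and 143, 149, 127 and 128 CPM with 4-HPAA. Saline replicate 1 was the lowest mouse, replicate 4 of the 4-HPAA group lay beside the lowest of its group (and was the lowest as TPM, at 98.6), and the log2 fold change was -0.04 ± 0.13 (interval -0.34 to 0.25).

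**Figure D2:**
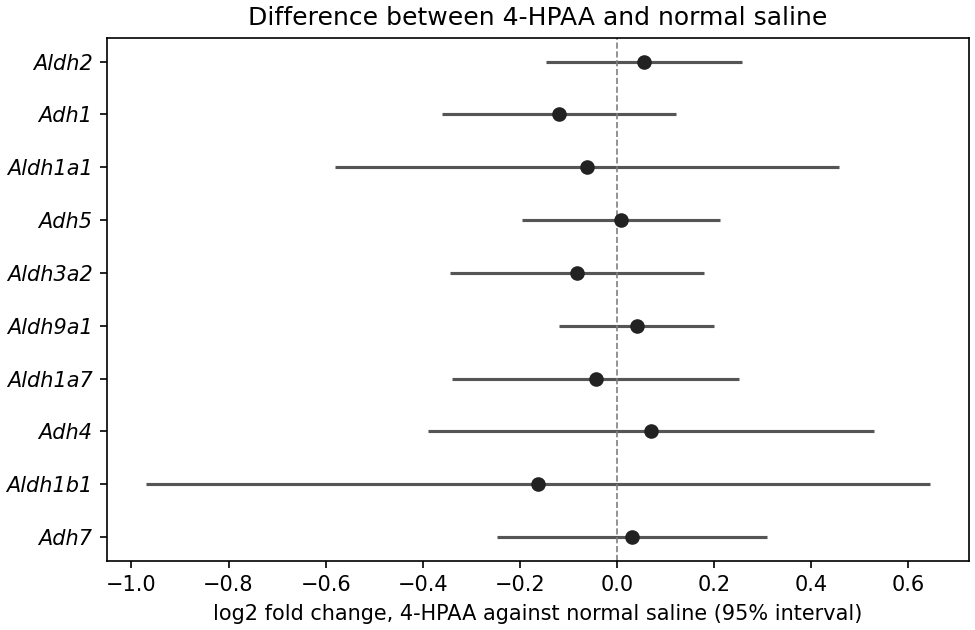
Log2 fold change of each gene between 4-HPAA and Normal saline (x axis; points are edgeR estimates, bars 95% intervals, n = 4 per group). Every interval includes 0, from the narrow one of Aldh9a1 (-0.12 to 0.20) to the wide one of Aldh1b1 (-0.97 to 0.64).

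The spread between mice of 1 group set these genes apart from each other. The SD of log2 CPM within groups was 0.063 for Aldh9a1 and 0.089 for Aldh2, at the percentiles 2.86 and 11.0 among all genes tested, whose median was 0.180. Adh5 (0.116), Adh1 (0.140), Aldh3a2 (0.181), Adh7 (0.203) and Aldh1a7 (0.220) lay in the middle. Adh4 (0.362, percentile 83.6), Aldh1a1 (0.412, percentile 88.3) and Aldh1b1 (0.612, percentile 96.5) were among the more variable genes. The highest mouse exceeded the lowest by 3.08 times in Aldh1b1, 2.25 times in Aldh1a1 and 1.90 times in Adh4. In Aldh1b1, replicate 4 of saline and 4-HPAA was at 124 and 89.2 CPM, against 40.2 to 53.9 CPM in the other mice. In Aldh1a1, replicate 4 was at 547 and 468 CPM, against 688 to 1054 CPM in the other mice. The SDs of both genes include replicate 4.

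Other genes of the liver lobule moved in the same mice. Periportal hepatocyte markers summed to 13320 TPM in saline replicate 4 and 11860 TPM in 4-HPAA replicate 4, each the highest of its group, whose other mice lay at 9304 to 11580 and at 10520 to 10640 TPM. Of the 10 periportal markers, 8 were highest in saline replicate 4 and 6 in 4-HPAA replicate 4, and none was at 0. Against this, 0 were lowest in saline replicate 4 and 2 (Hal and Pck1) in 4-HPAA replicate 4. Kupffer cell markers summed to 107 TPM in saline replicate 4 and 105 TPM in 4-HPAA replicate 4, the lowest of each group, against 136 to 305 and 163 to 276 TPM in the other mice, with 7 of 8 markers lowest in each of them. The sum of the hepatocyte markers was highest in replicate 4 of both groups, at 130000 and 129100 TPM against 97010 to 114800 TPM. Much of this sum was Alb, at 79750 and 75620 TPM in these mice, and the single markers did not all follow it. Of the 8 markers, 3 were highest and 2 lowest in saline replicate 4, and 5 were highest and 1 lowest in 4-HPAA replicate 4. Stellate cell markers summed to 142 to 259 TPM with saline and 159 to 231 TPM with 4-HPAA, and sinusoidal endothelial markers to 110 to 149 and 98.0 to 165 TPM. Replicate 4 was the lowest of both groups in these lists, with 6 and 5 of 8 stellate and 6 and 6 of 8 endothelial markers lowest in it. Some markers went the other way, with 0 and 1 stellate and 1 and 2 endothelial markers highest in it. Cholangiocyte markers summed to 24.7 to 51.7 and 25.5 to 38.7 TPM. The 8 acute phase genes summed to 10880 to 13690 and 10160 to 13210 TPM, and 0 of them passed the test. Their sum was highest in replicate 4 of both groups, but most of the genes did not follow it. Of the 8 genes, 2 were highest and 0 lowest in saline replicate 4, and 1 was highest and 3 lowest in 4-HPAA replicate 4. The part of these shifts in the levels of Aldh1a1, Aldh3a2 and Aldh1b1 was not tested.

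**Figure D3:**
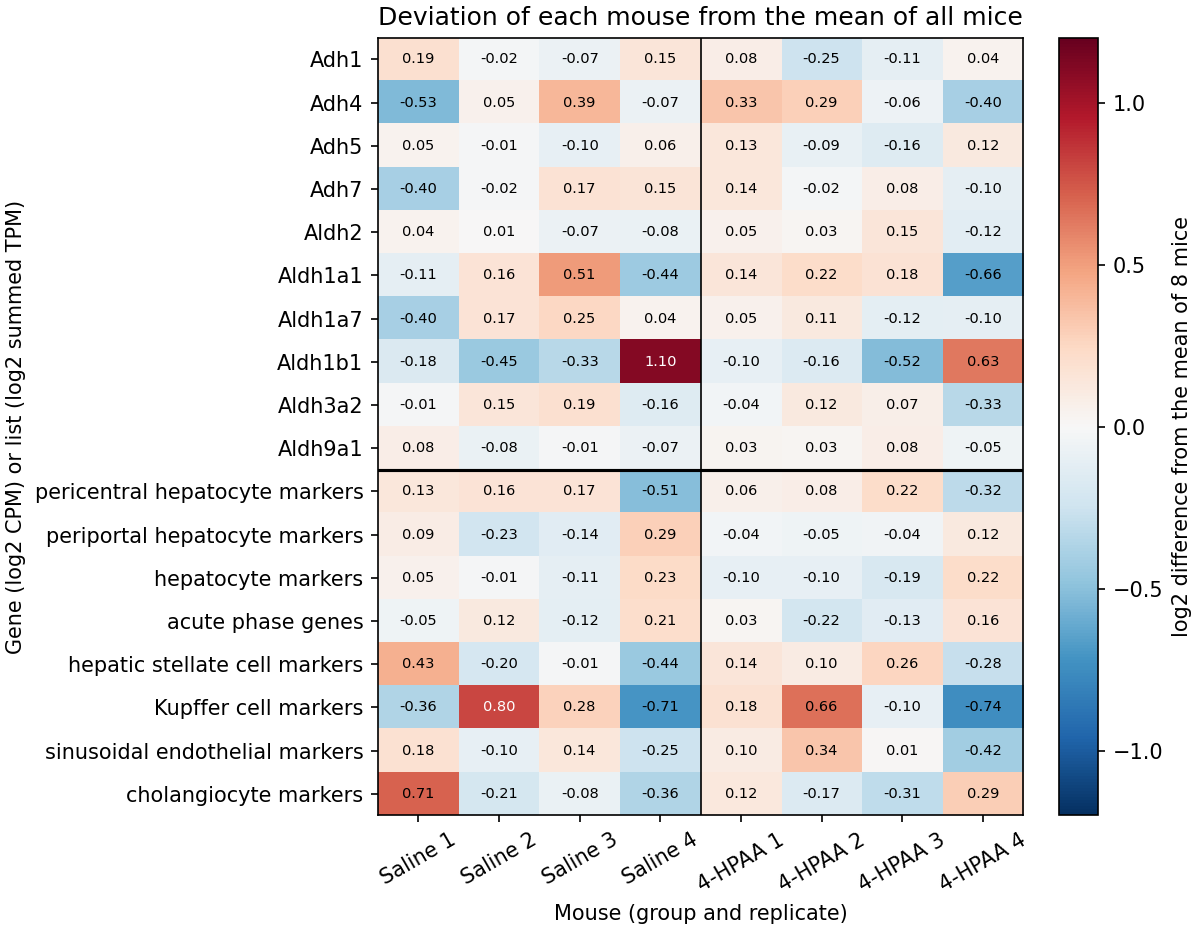
Difference of each mouse (columns) from the mean of all 8 mice on the log2 scale, for the 10 genes (log2 CPM) and, below the line, for lists of marker genes (log2 of the summed TPM), with red for higher and blue for lower. In replicate 4 of both groups Aldh1b1 is high (1.10 and 0.63), while Aldh1a1 (-0.44 and -0.66) and the pericentral markers (-0.51 and -0.32) are low.

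Aldh1a1 and Aldh3a2 rose and fell together from mouse to mouse. Over the 8 mice their log2 CPM had a Pearson r of 0.948 (exact permutation test, two-sided p = 0.000521, adjusted p = 0.0234 over the 45 pairs of members) and a Spearman rho of 0.905 (exact permutation p = 0.00456, adjusted p = 0.184). After the group means were removed r was 0.963. Without the 2 mice farthest from the median of Aldh1a1, replicate 4 of both groups, r was 0.760 over 6 mice (exact permutation p = 0.0583), so the relation past the threshold rested in part on those mice. Of the 45 pairs, 10 had an unadjusted p under 0.05, 1 passed adjustment by Pearson's r and 0 by Spearman's rho.

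Other pairs did not pass adjustment. Aldh1b1 ran opposite to Aldh1a1 (r = -0.830, adjusted exact permutation p = 0.172; rho = -0.667, adjusted p = 0.312), and this rested on replicate 4 of both groups, without which r was -0.273. Adh4 and Aldh1a7 had an r of 0.860 (adjusted exact permutation p = 0.0926). Without saline replicates 1 and 3, the mice farthest from the median of Adh4, r was 0.659 (exact permutation p = 0.154, not adjusted). The neighbours Aldh1a1 and Aldh1a7 had an r of 0.478 over the 8 mice and of 0.848 without replicate 4 of both groups (exact permutation p = 0.0431 over 6 mice, not adjusted).

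**Figure D4:**
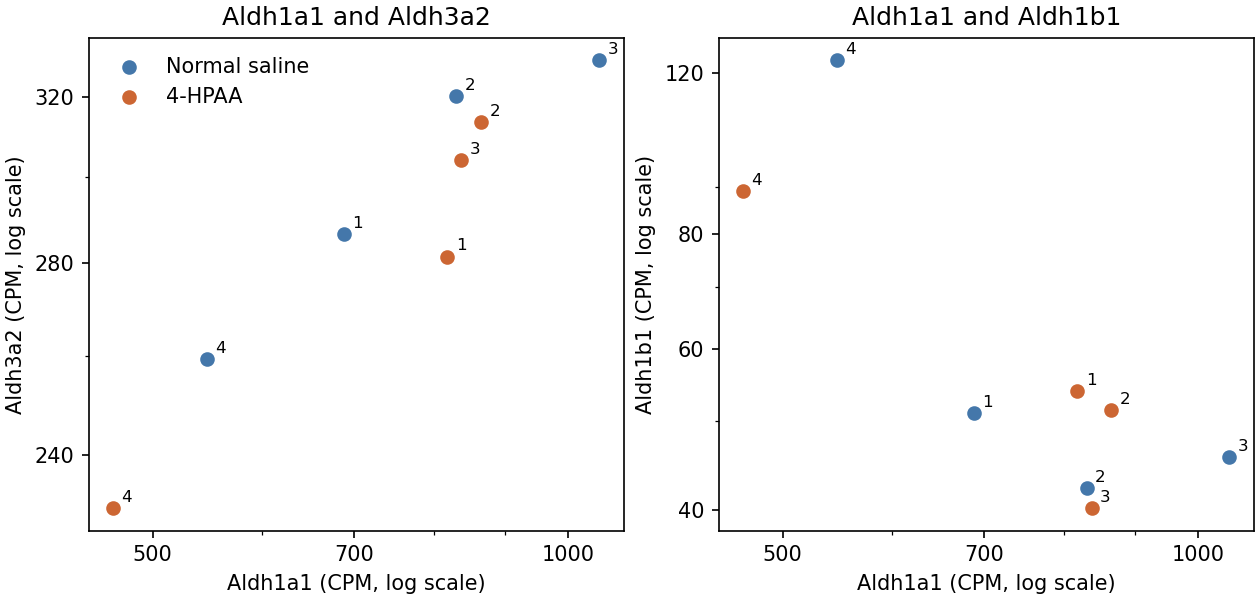
Each point is a mouse, numbered by replicate, with Aldh1a1 on the x axis and Aldh3a2 (left) or Aldh1b1 (right) on the y axis, all in CPM on log scales, with Normal saline in blue and 4-HPAA in orange. Aldh3a2 follows Aldh1a1 over all 8 mice (r = 0.948), while the opposite trend of Aldh1b1 (r = -0.830) is carried by the 2 mice numbered 4.

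The genes most like the leading members were named by Pearson's r of log2 CPM over the 8 mice, as a description without a test. For Adh1 they were Dstn (r = 0.987), Serpinc1 (0.967), the gene of antithrombin, and Apoc3 (0.958), the gene of an apolipoprotein. For Aldh2 they were Ltbp3 (0.977), Irak4 (0.958) and Mllt6 (0.927), and for Aldh1a1 they included Vps8 (0.982) and Acot11 (0.981). The points share libraries, and with 8 mice the highest r among 12883 genes is high by selection.

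Most members were read from 1 transcript, and Aldh2 was the exception. The leading protein-coding transcript held 99.4% of the counts of Adh1, 95.5% of Adh4, 92.4% of Adh5, 81.0% of Adh7, 99.9% of Aldh1b1, 87.0% of Aldh3a2 and 98.9% of Aldh9a1, and Aldh1a7 has a single transcript in the table. In Aldh2 the transcript ENSMUST00000129753 held 55.3% (51.4% to 59.9% over the mice) and ENSMUST00000031411 held 22.2% (19.4% to 23.8%). The latter is 3867 bases long with 13 exons, and the former 1799 bases with 11 exons. A further 9.59% and 8.96% went to the short transcripts ENSMUST00000200541 and ENSMUST00000199369, of 623 and 802 bases. In Adh7 the protein-coding transcript ENSMUST00000090171 held 81.0% of the counts but 37.7% of the level per length, because the retained-intron transcript ENSMUST00000199865 and the noncoding transcript ENSMUST00000196133 are only 470 and 502 bases long. With the length of the most abundant transcript alone, Adh7 was at 13.0 TPM and Aldh2 at 1459 TPM over the 8 mice.

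**Figure D5:**
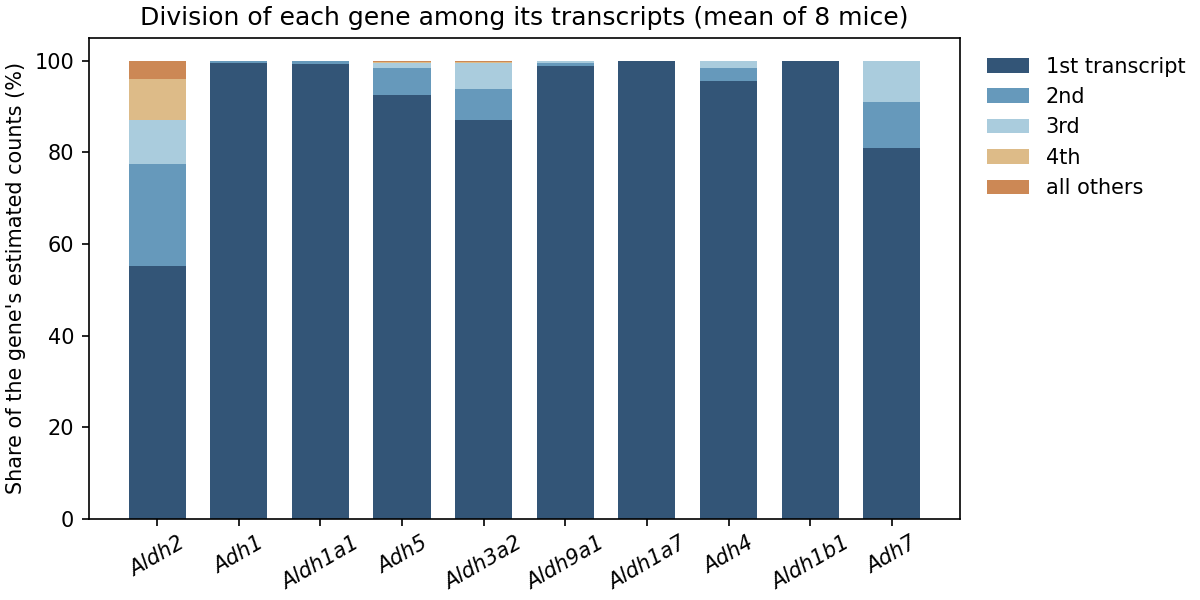
Share of each gene's estimated counts (y axis, percent, mean of 8 mice) held by its transcripts, stacked from the most abundant in dark blue upward. Aldh2 divides its counts among several transcripts, led by one with 55.3%, while Aldh1a7, Aldh1b1 and Adh1 are almost wholly 1 transcript.

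No single transcript of these genes passed the test either. Of 45 transcripts, 32 had at least 10 counts in every library, of which 18 were higher and 14 lower, 0 passed the adjusted threshold by edgeR and 0 had an unadjusted p under 0.05. Among all 25533 transcripts tested, 0% passed the adjusted threshold, 3.83% (978) had an unadjusted p under 0.05 and 2.11% had groups that did not overlap, against 0 of the 32. In Aldh2 the 2 leading transcripts differed in share by less than the SD of the 4-HPAA group, with ENSMUST00000129753 at 54.3% ± 2.17 with saline and 56.3% ± 3.02 with 4-HPAA and ENSMUST00000031411 at 22.5% ± 1.14 and 21.9% ± 1.90. The log2 fold changes of these transcripts were 0.12 ± 0.11 and 0.03 ± 0.10. The short transcript ENSMUST00000200541 of Aldh2 was lower in share with 4-HPAA (9.18% ± 0.814) by slightly more than either SD, and its log2 fold change of -0.06 ± 0.11 did not pass the test.

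The wider pathways of alcohol and aldehyde metabolism gave no call either, with 0 genes past the adjusted threshold and 0 with an unadjusted p under 0.05 by edgeR in each of 5 lists. Of 18 other genes of the families, 11 were tested, 6 higher and 5 lower, with a median log2 fold change of 0.01. The largest differences were in genes near the limit of detection, Aldh1a3 (a retinaldehyde dehydrogenase, 0.31 ± 0.21) and Aldh18a1 (proline synthesis, 0.27 ± 0.32), at 0.512 and 0.484 TPM, and in Aldh3b1 (-0.13 ± 0.27), at 1.48 TPM. Adh6a, Aldh3a1 and Aldh3b2 had at most 3 counts in every library.

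Amine oxidases and the decarboxylase Ddc act upstream of aromatic aldehydes. Of these 6 genes 4 were tested, and 0 were higher and 4 lower, with a median log2 fold change of -0.06, and the largest differences were in Aoc2 (-0.18 ± 0.25), Maob (-0.07 ± 0.08) and Ddc (-0.05 ± 0.19). Maob, a monoamine oxidase of the outer mitochondrial membrane, was at 117 TPM, Ddc at 18.9 TPM and Aoc2 at 1.29 TPM. Of 18 aldehyde oxidases and reductases, 14 were tested, 9 higher and 5 lower (median 0.02), led by Akr1c20 (-0.16 ± 0.21), Cbr1 (carbonyl reductase, -0.16 ± 0.17) and Akr7a5 (0.15 ± 0.14). Aox2 and Aox4 had at most 3 counts in every library.

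Of 6 other enzymes of ethanol and acetate metabolism, 5 were tested, 2 higher and 3 lower (median -0.03), and the named ones were Acss2 (acetyl-CoA synthesis from acetate, -0.11 ± 0.16), Acss3 (-0.07 ± 0.26) and Cyp2e1 (ethanol oxidation by cytochrome P450, 0.04 ± 0.17). Cyp2e1 was at 3912 TPM in saline replicate 4 and 4716 TPM in 4-HPAA replicate 4, below the 5842 to 6663 TPM of the other 6 mice. Of 15 genes of retinol and retinaldehyde metabolism, 14 were tested, 7 higher and 7 lower (median 0.00). Among the largest differences were those of Lrat (retinol esterification, 0.34 ± 0.24) and Rdh11 (retinaldehyde reduction, -0.25 ± 0.13, unadjusted p = 0.0854).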

How the data were processed

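RNA of 8 livers was sequenced from directional libraries as paired reads of 100 bases. The authors pseudo-aligned them with kallisto and deposited estimated counts per transcript, with no normalization and no pooling of mice. Transcripts carry Ensembl identifiers, although NCBI annotations (GRCm38.p6) are named in the paper. Columns without a sample numbered 0. With GENCODE release M21, transcripts were summed to genes (116728 of 119414 matched; the rest held 0.703% to 1.06% of counts) and rounded. A gene was tested if no library held fewer than 10 counts, by the quasi-likelihood test of edgeR 4.0.16 with TMM and Benjamini-Hochberg adjustment (threshold 0.05) in R 4.3.3. SE is the absolute log2 fold change over the square root of F. Log2 CPM used a prior count of 2. TPM were computed from each transcript's counts over its length, since effective lengths are not given in the sources used here. At this depth variation among the 4 mice of each group limited precision, and p-values measure only that variation. Tried as alternatives were RLE, total counts only, limma-voom (limma 3.58.1), DESeq2 1.42.0, other count filters, single transcripts, Aldh1a1 and Aldh1a7 summed, each mouse left out, replicate 4 of both groups left out (added after seeing the data) and the replicate number as a block. Steps were tested on simulated data. Members and gene lists were chosen with earlier results of these data known. Named were the members, their transcripts with at least 10% of the gene, the 3 largest differences of each pathway list, and the 3 genes most like Adh1, Aldh2 and Aldh1a1. Items that this rule names but that are withheld are not reported here. Genes and transcripts named outside this rule, such as transcripts with less than 10% of their gene, were chosen after their values were seen.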

Additional observations from a re-analysis of the deposited data

Results flagged for a closer look

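Of 20 groups of 4 mice tested (10 genes in 2 groups), 2 held a mouse far from the rest, where chance flags about 1 in 20. Aldh1a1 was at 468.2 CPM in 4-HPAA replicate 4, against 817.8 to 865.0 CPM in the other 4-HPAA mice, a gap of 0.881 of the range of the group. Aldh1b1 was at 123.9 CPM in saline replicate 4, against 42.3 to 51.01 CPM in the other saline mice, a gap of 0.893 of the range. In the other group, replicate 4 was again lowest in Aldh1a1 (547 CPM) and highest in Aldh1b1 (89.2 CPM) without standing as far from the rest.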

How the results depend on the processing

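No member passed the adjusted threshold of edgeR, DESeq2 or limma-voom in any alternative. The number of all genes past it was 0 except with DESeq2 (2) and without 4-HPAA replicate 1 (1, CAAA01147332.1), so leaving out each mouse gave 0 to 1 genes and 0 members. With each mouse left out, the log2 fold change ranged from -0.16 to -0.0586 for Adh1, -0.0708 to 0.23 for Adh4, -0.0371 to 0.0598 for Adh5, -0.0807 to 0.0953 for Adh7, 0.0134 to 0.0974 for Aldh2, -0.20 to 0.12 for Aldh1a1, -0.16 to 0.0349 for Aldh1a7, -0.45 to 0.34 for Aldh1b1, -0.15 to -0.0009 for Aldh3a2, 0.0197 to 0.0742 for Aldh9a1. Of these, the direction of Adh4, Adh5, Adh7, Aldh1a1, Aldh1a7 and Aldh1b1 turned with a single mouse, and that of Adh1, Aldh2, Aldh3a2 and Aldh9a1 kept its sign. The ranges of the transcripts that turned were -0.0484 to 0.24 for the Adh4 transcript ENSMUST00000013458, -0.0163 to 0.0855 for the Adh5 transcript ENSMUST00000005964, -0.10 to 0.0774 for the Adh7 transcript ENSMUST00000090171, -0.19 to 0.12 for the Aldh1a1 transcript ENSMUST00000087638, -0.15 to 0.0428 for the Aldh1a7 transcript ENSMUST00000025656, -0.43 to 0.35 for the Aldh1b1 transcript ENSMUST00000044384, -0.0405 to 0.0800 for the Aldh2 transcript ENSMUST00000031411, -0.14 to 0.0350 for the Aldh3a2 transcript ENSMUST00000074127. Adh5 turned to -0.0010 when only total counts were scaled and to -0.0115 without replicate 4 of both groups, where Aldh1b1 turned to 0.0643, and Adh7 turned to -0.0022 with its most abundant transcript alone. The cause was not tested. With the replicate block, 0 genes and 0 members passed, and the log2 fold change was -0.06 for Aldh1a1 and -0.08 for Aldh1b1. Deviations of same-numbered mice correlated by 0.0398 to 0.480, with 1 pair under 0.1 and not every mouse correlating best with its own number, so the numbers were not taken as pairs.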
